A study of Rattus norvegicus with 16 samples.

Results

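The genes described here are the digestive enzymes, zymogen granule proteins and Reg family proteins of the pancreatic acinar cell, measured as RNA in cultured rat islets. A list of 39 gene symbols was set, and each symbol was read through its probe set of highest mean level over 16 arrays. Of the 39, 34 were measured, among 14217 genes in all. No probe set carried the symbols Reg4, Rnase1, Spink3, Cckar or Try4 in the annotation used here, so those genes were not analysed. The measured genes comprised 11 proteases, 9 lipases and other hydrolases, 7 granule proteins and inhibitors, 4 Reg proteins and 3 other genes of acinar cells. Klk1, tissue kallikrein, is also a protease but was listed among the other hydrolases.

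Primary islets of male Wistar rats, 8 weeks old, were held in RPMI medium with 8 mM glucose and 10% FBS. There were 5 arrays of islets given AdNkx6.1, an adenovirus expressing the beta cell transcription factor Nkx6.1, 6 arrays of islets given Adβgal, the matching adenovirus expressing β-galactosidase, and 5 arrays of untreated islets. Both viruses were added for 18 h at the same approximate particle concentration, with harvest at 48 h after its addition. Biological replicate numbers stand in the titles. The protocol states 5 replicates for each condition, whereas 6 Adβgal arrays were present and all were used. The labels do not say how many rats gave the islets of an array, so p-values measure the spread between these arrays. Values are log2 of the deposited probe set intensity, given as mean ± SD, and differences are log2 values, first-named group minus second, ± SE. A gene was called when its limma adjusted p was under 0.05.

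Islets hold the hormone-producing cells of the pancreas and lie in exocrine tissue made up largely of acinar cells. Acinar cells synthesize digestive enzymes, mostly as inactive precursors, store them in zymogen granules and release them into the duct. Their enzyme genes are switched on by the PTF1 complex, in which Ptf1a binds an E-box and an RBPJ-type partner binds a TC-box lying a short distance away. Islets are freed from this tissue by digestion, and isolated islets are known to carry some adhering acinar cells or their RNA. Reg proteins are small secreted lectin-like proteins that acinar cells produce strongly during inflammation.

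Promoters of these genes are shown as a description of their sequence, and any link to the levels on the arrays was not tested. RefSeq promoters of build GRCr8, running from 250 bases before the annotated start to 50 bases after it, were present for 27 of the 34 genes, with 1 gene, Reg3a, having more than 1 entry. The first 3 of the promoters below are those of the listed genes that hold CACCTG (E-box), any 4 bases and TTTCCC (TC-box) in that order on either strand, and capitals mark that stretch. For Reg3g, and also for Cela1 and Prss2, capitals mark a TATAAA stretch before the start. In Prss2 the joined stretch lies on the opposite strand and so reads as its reverse complement. Each is written 5′ to 3′ on the strand of the gene: Ctrb1 at chr19:56566929-56567228 (minus strand), Cela1 at chr7:133665012-133665311 (minus), Prss2 at chr4:71244714-71245013 (plus) and Reg3g at chr4:112484689-112484988 (minus).
Ctrb1 promoter: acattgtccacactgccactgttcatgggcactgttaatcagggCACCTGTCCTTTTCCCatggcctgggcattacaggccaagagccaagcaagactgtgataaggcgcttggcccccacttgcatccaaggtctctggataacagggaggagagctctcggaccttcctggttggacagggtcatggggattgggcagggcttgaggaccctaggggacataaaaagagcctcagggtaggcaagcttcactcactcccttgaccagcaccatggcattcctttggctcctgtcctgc
Cela1 promoter: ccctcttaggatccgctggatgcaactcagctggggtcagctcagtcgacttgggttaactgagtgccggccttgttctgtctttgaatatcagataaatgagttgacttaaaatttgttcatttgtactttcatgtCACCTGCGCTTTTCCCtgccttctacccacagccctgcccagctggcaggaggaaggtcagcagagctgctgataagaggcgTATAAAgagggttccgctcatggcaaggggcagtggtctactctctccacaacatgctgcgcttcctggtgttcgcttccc
Prss2 promoter: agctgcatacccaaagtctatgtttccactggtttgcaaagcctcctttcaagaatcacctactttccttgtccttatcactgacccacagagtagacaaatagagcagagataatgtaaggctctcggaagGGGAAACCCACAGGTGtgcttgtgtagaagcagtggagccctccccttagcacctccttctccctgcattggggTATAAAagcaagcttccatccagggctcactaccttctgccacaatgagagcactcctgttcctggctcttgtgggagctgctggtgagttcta
Reg3g promoter: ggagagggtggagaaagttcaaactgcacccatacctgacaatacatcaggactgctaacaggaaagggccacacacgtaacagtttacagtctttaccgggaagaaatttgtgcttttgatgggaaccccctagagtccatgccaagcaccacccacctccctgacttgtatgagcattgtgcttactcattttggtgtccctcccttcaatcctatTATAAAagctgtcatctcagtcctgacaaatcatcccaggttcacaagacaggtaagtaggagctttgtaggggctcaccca

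The joined stretch CACCTGNNNNTTTCCC was found in 9 of 33469 RefSeq promoters (0.0269%), and 3 of the 27 promoters of the listed genes were among those 9. It began 206 bases before the start in Ctrb1, 113 bases before it in Cela1 and 118 bases before it in Prss2. CACCTG alone was found in 15 of the 27 promoters, against 18.8% of all promoters. TTTCCC alone was found in 12 of 27, against 25.1% of all, and TATAAA in 14 of 27, against 14.2% of all. Both strands were searched for each, and the joined stretch contains both shorter ones. A match is a description of these letters, and its absence from a window says nothing of the factor. With all arrays, limma called none of Ctrb1, Cela1 and Prss2 in any comparison.

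In the GRCr8 gene order several of the listed genes are direct neighbours. Reg3b, Reg3a, Reg1a and Reg3g follow one another on chromosome 4, Pnlip, Pnliprp1 and Pnliprp2 on chromosome 1, and Cela2a and Ctrc on chromosome 5. Trypsinogens, amylases and Reg genes have near-identical relatives, so their probe sets may share signal. Of the 34 genes, 2 had further probe sets. The 2 other probe sets of Spink1 averaged 10.61 ± 0.77 and 3.47 ± 0.18 with AdNkx6.1, 11.50 ± 1.17 and 4.43 ± 1.20 with Adβgal and 10.10 ± 0.46 and 3.79 ± 0.30 untreated, the brighter of them following the order of the probe set used. The other probe set of Gatm lay between 4.18 and 4.94 on every array.

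The labelled tissue was borne out by its hormones. Ins1, Ins2, Gcg and Sst lay between 13.90 and 14.91 on all 16 arrays. The acinar transcripts were also bright in untreated islets, where Ctrb1 lay at 13.47 to 13.99 and Pla2g1b at 13.55 to 14.04. At the other end Aqp8 lay at 3.76 to 4.92 and Dnase1 at 4.54 to 5.34 over all arrays, and since no detection call was used their folds are not exact. Nkx6-1 itself averaged 11.43 ± 0.17 with AdNkx6.1, against 11.90 ± 0.19 with Adβgal and 12.23 ± 0.09 untreated. Whether this probe set reads the viral transcript is not known from the labels, so its level is no check on the group names.

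The acinar genes varied more between arrays of a group than most genes did, and most with Adβgal. Their median SD was 0.70 with AdNkx6.1, 1.06 with Adβgal and 0.35 untreated, whereas over all genes it was 0.15, 0.23 and 0.12 in the same groups. An SD above 1 was seen in 2 of the 34 genes with AdNkx6.1, in 22 with Adβgal and in 0 untreated. The SD with Adβgal exceeded the untreated SD in 33 of 34 genes, and in 87.0% of all genes. Pnlip, pancreatic triglyceride lipase, had the highest SD with Adβgal, at 1.55, and Klk1, tissue kallikrein, the lowest, at 0.13.

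Within each group most of these genes were lowest on the same array, and most were highest on the same array. The median level of the 34 genes was 10.03, 10.41, 10.98, 9.38 and 8.99 on AdNkx6.1 replicates 1 to 5. It was 10.23, 9.02, 10.63, 12.36, 11.61 and 11.75 on Adβgal replicates 1 to 6, and 9.41, 10.13, 9.55, 10.04 and 9.08 on untreated replicates 1 to 5. The Adβgal group thus spanned both the highest and nearly the lowest array of the series.

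Within AdNkx6.1, replicate 5 was the lowest array for 30 of the 34 genes and replicate 3 the highest for 23. Within Adβgal, replicate 2 was the lowest for 30 genes, replicate 4 the highest for 21 and replicate 5 the highest for 11. Within the untreated group, replicate 5 was the lowest for 25 genes and replicate 2 the highest for 27. Adβgal replicates 4, 5 and 6 were the 3 highest of their group in 28 of 34 genes, the other 6 being Reg3a, Reg3b, Reg3g, Pla2g1b, Klk1 and Aqp8. All 3 lay above every untreated array in 30 genes and above every AdNkx6.1 array in 25. Adβgal replicate 2 lay below every untreated array in 28 genes.

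**Figure D1:**
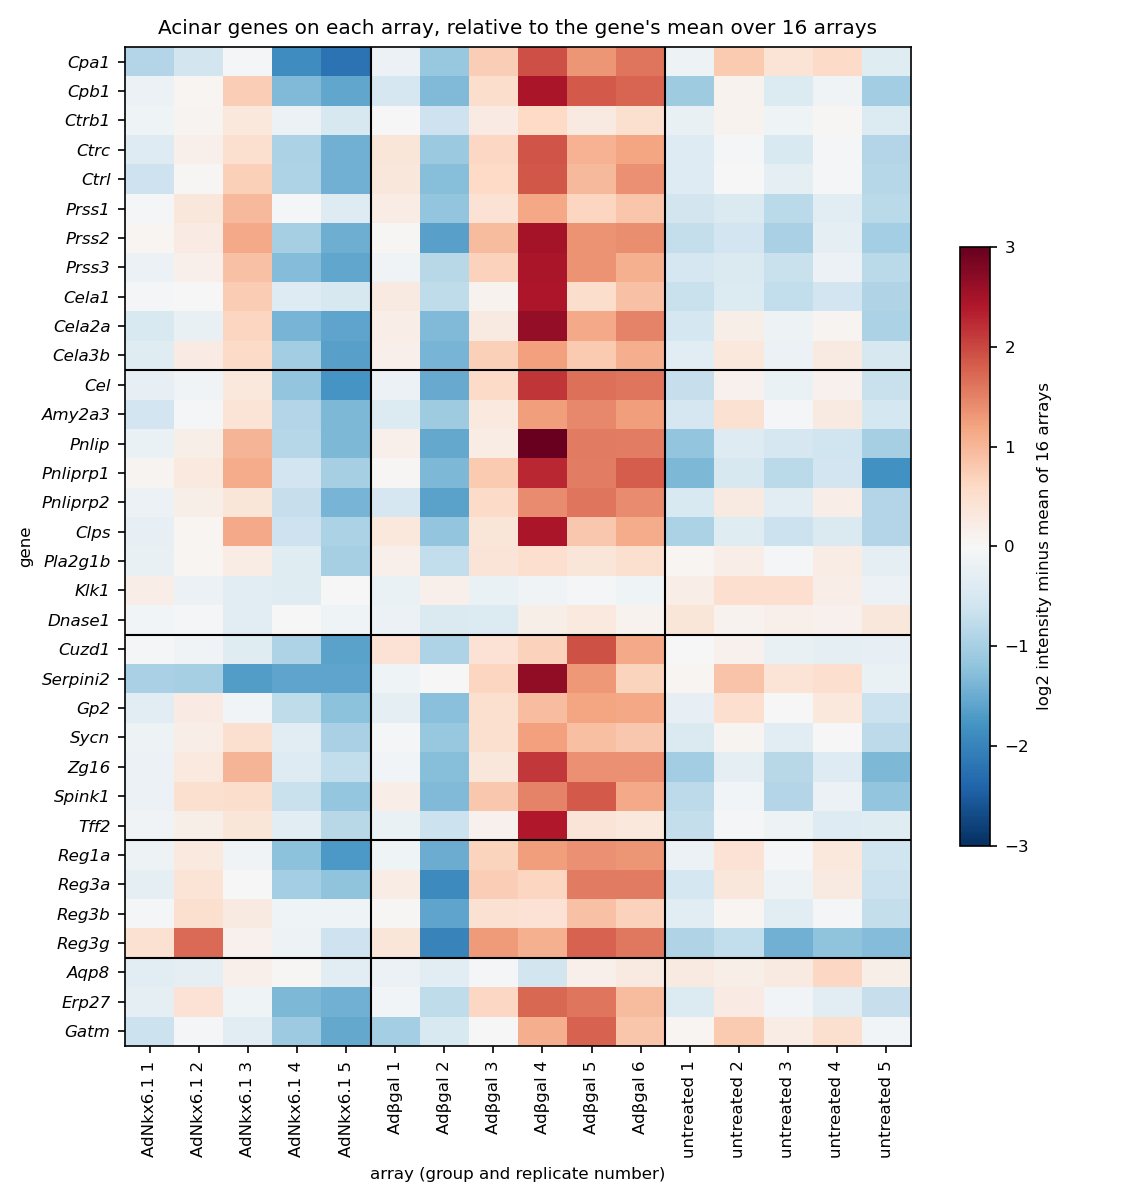
Heat map of the 34 acinar genes (rows, divided by role) on the 16 arrays (columns, by group and replicate number); colour is the log2 intensity minus the gene's mean over all arrays, from -3 (blue) to 3 (red). Adβgal replicates 4, 5 and 6 are red and Adβgal replicate 2 and AdNkx6.1 replicates 4 and 5 are blue in most rows, while Klk1, Aqp8 and Dnase1 stay pale.

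Marker lists of other cell types were set beside these levels, and their part in the acinar differences was not tested. The 13 leukocyte markers averaged 7.41 to 7.95 on the AdNkx6.1 arrays, 7.55 to 7.61 on Adβgal replicates 1, 2 and 3, 8.23 to 8.61 on Adβgal replicates 4, 5 and 6, and 7.57 to 7.80 untreated. The T cell genes Cd3e and Cd3g lay no higher than 4.04 and 4.15 with AdNkx6.1, reached 6.11 and 6.92 with Adβgal and lay no higher than 4.13 and 3.81 untreated. The macrophage gene Adgre1 fell in AdNkx6.1 islets relative to Adβgal (-0.65 ± 0.17, limma adjusted p = 0.011) and was higher in Adβgal islets than in untreated ones (0.87 ± 0.17, 0.0081). Not all genes of the list went that way. Cd4, carried by T cells and macrophages, fell in Adβgal islets relative to untreated ones (-0.56 ± 0.16, limma adjusted p = 0.042), a call lost without any 1 of 11 arrays, and the myeloid genes Tyrobp and Csf1r had -0.31 ± 0.14 (0.17) and -0.20 ± 0.15 (0.43) there. In AdNkx6.1 islets relative to untreated ones Cd4, Tyrobp and Csf1r each fell by 0.54 (limma adjusted p = 0.019, 0.0097 and 0.016); the call of Cd4 was lost without untreated replicate 1, AdNkx6.1 replicate 1 or AdNkx6.1 replicate 2.

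Of the 13 leukocyte markers, 1 was lower and 0 higher in AdNkx6.1 against Adβgal, 1 was lower and 1 higher in Adβgal against untreated, and 3 were lower and 0 higher in AdNkx6.1 against untreated. Beside these and the counts below, 8.48% of all genes were lower and 16.6% higher in AdNkx6.1 against Adβgal. The shares were 4.17% and 2.84% in Adβgal against untreated and 13.8% and 16.9% in AdNkx6.1 against untreated. At an unadjusted p under 0.05, 36.2%, 24.9% and 40.2% of all genes passed in the same order. The 12 stellate and fibroblast markers averaged 11.27 to 11.41 with AdNkx6.1, 11.02 to 11.52 on Adβgal replicates 1, 2 and 3, 11.54 to 11.71 on replicates 4, 5 and 6, and 11.19 to 11.42 untreated; 2 of them were lower in AdNkx6.1 against Adβgal, 1 was higher in Adβgal against untreated and 1 was lower in AdNkx6.1 against untreated. The 11 endothelial markers ranged from 9.34 to 10.42 with AdNkx6.1, from 8.65 to 11.05 with Adβgal and from 9.52 to 9.78 untreated, with 0 called in any comparison by limma and 0, 3 and 0 at an unadjusted p under 0.05. The 13 duct markers lay at 10.64 to 10.87 with AdNkx6.1, 10.31 to 10.88 with Adβgal and 10.50 to 10.66 untreated, with 0 lower and 6 higher in AdNkx6.1 against Adβgal, 0 called by limma in Adβgal against untreated (6 at an unadjusted p under 0.05) and 1 lower and 5 higher in AdNkx6.1 against untreated. The 8 beta cell markers lay at 13.11 to 13.23 with AdNkx6.1, 13.30 to 13.43 with Adβgal and 13.49 to 13.61 untreated, and the 9 markers of other endocrine cells at 11.96 to 12.21, 12.24 to 12.65 and 12.46 to 12.62 in the same groups. In those 3 comparisons 2, 1 and 6 of the beta cell markers and 4, 1 and 6 of the other endocrine markers were lower, and 0 were higher. Over all 16 arrays the beta cell mean thus ran from 13.11 to 13.61, while that of the 34 acinar genes ran from 8.74 to 11.37. Beta cell markers such as Ins1 (14.43 to 14.89) and Ins2 (14.61 to 14.91) lay near the top of the scale. Their narrow range may therefore understate differences between arrays.

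**Figure D2:**
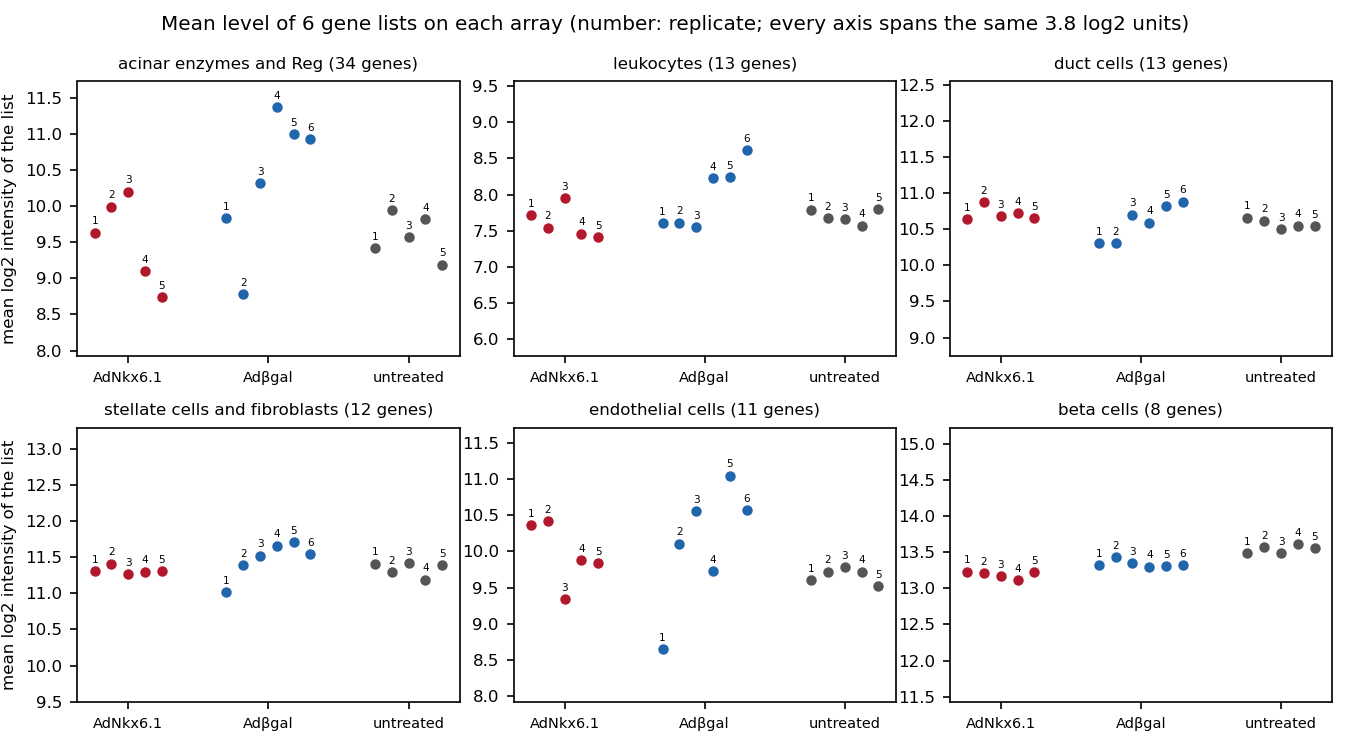
Mean log2 intensity of 6 gene lists on each array, by group (AdNkx6.1, Adβgal, untreated), with replicate numbers above the points and axes of equal span. Adβgal replicates 4, 5 and 6 stand highest of all arrays in the acinar list (10.93 to 11.37) and the leukocyte list (8.23 to 8.61). They are also highest in the stellate and fibroblast list (11.54 to 11.71), where Adβgal replicate 3 follows at 11.52. Beta cell values stay within 13.11 to 13.61.

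The effect of Nkx6.1 delivery over that of a virus with an inert cargo is addressed by AdNkx6.1 against Adβgal. In AdNkx6.1 islets 4 acinar genes fell: the protease inhibitor gene Serpini2, the carboxypeptidase gene Cpa1, the granule membrane protein gene Cuzd1 and the endoplasmic reticulum protein gene Erp27. None of the 34 rose, and 12 had an unadjusted p under 0.05, all of them lower. At that threshold 36.2% of all genes passed, 13.9% lower and 22.4% higher. All 34 differences were below 0, with a median of -0.88, against 0.02 over all genes. Of all genes, 8.48% were lower and 16.6% higher in this comparison, so 4 of 34 lower lies near the background. Leaving out Adβgal replicates 4, 5 and 6 gave a median of -0.07 with 1 gene, Serpini2, lower (10.4% of all genes). Leaving out Adβgal replicate 2 gave a median of -1.25 with 24 lower (8.22% of all genes). That array was the lowest of its group for 30 of the 34 genes. Leaving it out was thus bound to lower the differences of those genes, and its count is descriptive. Replicates 4, 5 and 6 were chosen with these values known and hold the highest median acinar levels of their group. Dropping them was thus bound to move the median towards 0, and p-values of that setting are descriptive. The count was 7 without AdNkx6.1 replicate 3 and 2 without AdNkx6.1 replicate 4, AdNkx6.1 replicate 5 or Adβgal replicate 6. In these fits 6.82%, 6.09%, 5.94% and 7.7% of all genes were lower. In such whole-islet RNA, fewer acinar cells and less RNA per acinar cell cannot be told apart.

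Serpini2, a pancreatic serpin, separated the groups. It read 7.29, 7.27, 6.58, 6.69 and 6.68 on the 5 AdNkx6.1 arrays. On the 6 Adβgal arrays it read 8.13, 8.27, 8.91, 10.93, 9.57 and 8.94, and on the 5 untreated arrays 8.33, 9.11, 8.67, 8.76 and 8.06. Every AdNkx6.1 array lay below every Adβgal and every untreated array. The difference from Adβgal was -2.22 ± 0.39, a 4.67-fold lower level (limma adjusted p = 0.00049), and it was called whichever single array was left out (adjusted p of 9.8e-05 to 0.0020). Without Adβgal replicates 4, 5 and 6 it was -1.53 with an adjusted p of 0.00048. Serpini2 was the only 1 of the 34 genes whose groups did not overlap here, against 3.78% of all genes lower and 10.4% higher without overlap.

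Cpa1 encodes carboxypeptidase A1, which trims aromatic and aliphatic residues from the ends of peptides. It read 10.25, 10.58, 11.08, 9.26 and 8.92 on the AdNkx6.1 arrays and 10.96, 10.00, 11.88, 13.06, 12.46 and 12.73 on the Adβgal arrays. Untreated arrays held 10.98, 11.91, 11.54, 11.71 and 10.77. Adβgal replicates 1 and 2 overlapped the AdNkx6.1 arrays. The difference was -1.83 ± 0.51, or 3.55-fold (limma adjusted p = 0.014), and -0.93 without Adβgal replicates 4, 5 and 6 (adjusted p = 0.19).

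Cuzd1, a CUB and zona pellucida domain protein of the granule membrane, read 6.06, 5.97, 5.72, 5.15 and 4.48 on the AdNkx6.1 arrays. On the Adβgal arrays its lowest, median and highest values were 5.15, 6.65 and 7.99, and untreated arrays lay at 5.80 to 6.22. The groups overlapped through Adβgal replicate 2. The difference was -1.22 ± 0.38 (limma adjusted p = 0.028), and the adjusted p reached 0.089 once AdNkx6.1 replicate 4, AdNkx6.1 replicate 5 or Adβgal replicate 6 was dropped. With Adβgal replicates 4, 5 and 6 all dropped, Cuzd1 had -0.58 (adjusted p = 0.26).

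Erp27, a non-catalytic relative of protein disulfide isomerase, read 8.48, 9.19, 8.63, 7.40 and 7.31 on the AdNkx6.1 arrays. With Adβgal its lowest, median and highest values were 7.99, 9.55 and 10.47, and untreated arrays lay at 8.07 to 9.01. AdNkx6.1 replicates 4 and 5 lay below all Adβgal arrays and the other 3 lay among them. The difference was -1.23 ± 0.43 (limma adjusted p = 0.046); leaving out any array but Adβgal replicates 1 and 2 or AdNkx6.1 replicate 2 ended the call (adjusted p up to 0.13), and without Adβgal replicates 4, 5 and 6 it was -0.48 (adjusted p = 0.44).

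**Figure D3:**
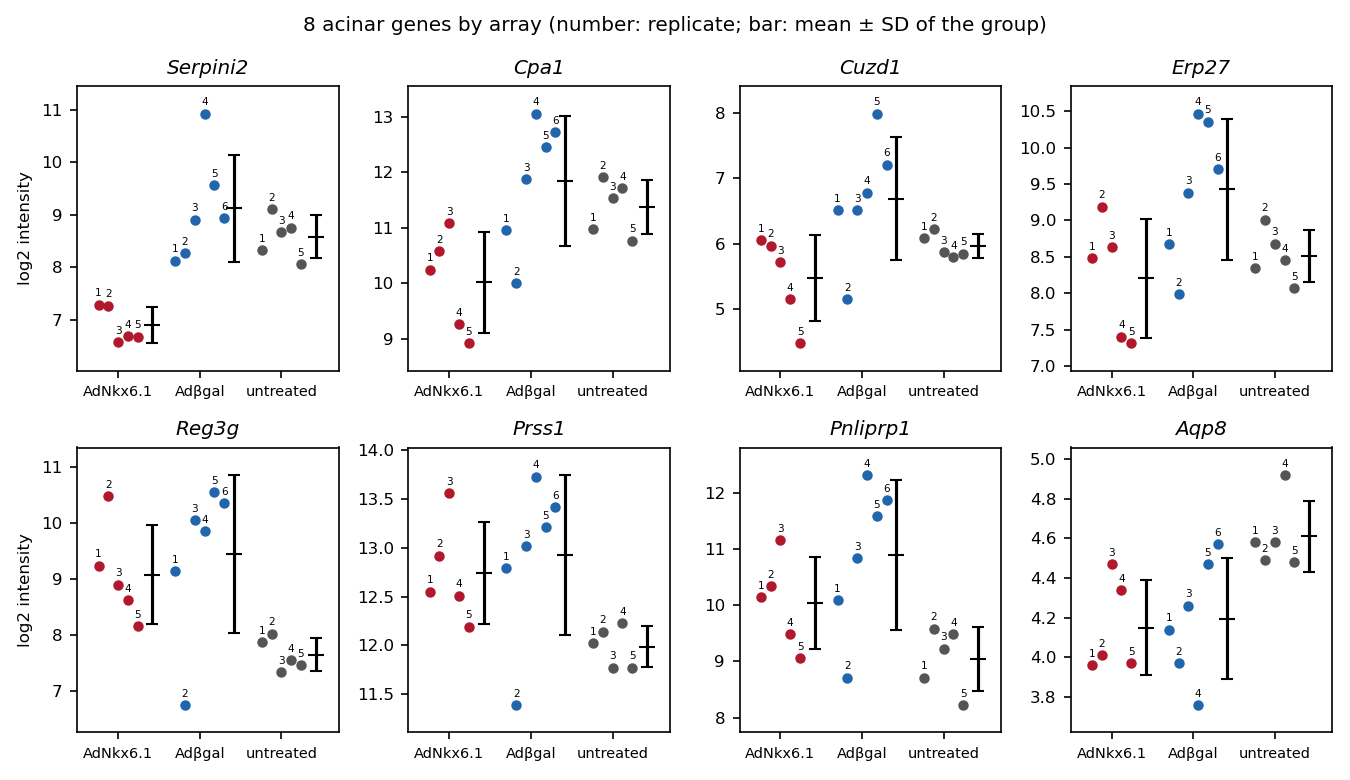
Log2 intensity of 8 acinar genes on each array by group (AdNkx6.1, Adβgal, untreated), with replicate numbers above the points and bars for mean ± SD. The AdNkx6.1 arrays of Serpini2 (6.58 to 7.29) lie below all others, all AdNkx6.1 arrays of Reg3g (8.16 to 10.48) lie above the untreated ones, and Adβgal spans the widest range in most panels.

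Among the 11 listed proteases, Klk1 not counted, 1 fell (Cpa1) and 0 rose, with a median of -1.09 and differences of -1.83 to -0.18. The elastase gene Cela2a had -1.34 ± 0.56 (limma adjusted p = 0.092) and Cpb1, carboxypeptidase B1, -1.24 ± 0.61 (0.15). The trypsinogen gene Prss3 had -1.17 ± 0.50 (0.10), Prss2 -0.97 ± 0.58 (0.25) and Prss1 -0.18 ± 0.33 (0.73). Chymotrypsinogen genes had -1.10 ± 0.46 for Ctrl, -1.09 ± 0.44 for Ctrc and -0.23 ± 0.19 for Ctrb1. Ctrb1 lay near the top of the scale, at 13.40 to 14.20 with AdNkx6.1 and 13.26 to 14.48 with Adβgal, so its difference may be understated. The other elastase genes Cela3b and Cela1 had -0.87 ± 0.44 and -0.61 ± 0.40. Of these, Prss1 read 12.19 to 13.56 with AdNkx6.1 and 11.39 to 13.73 with Adβgal, so the range with AdNkx6.1 lay inside that with Adβgal.

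Among the 9 lipases and other hydrolases 0 were called by limma and 2 had an unadjusted p under 0.05, with a median of -0.83. Cel, the bile salt-activated lipase, had -1.31 ± 0.55 (limma adjusted p = 0.097) and the amylase gene Amy2a3 -0.94 ± 0.43 (0.13). Pnlip had -1.06 ± 0.61, its relatives Pnliprp1 and Pnliprp2 -0.86 ± 0.54 and -0.83 ± 0.51, and Clps, the colipase that anchors the lipase on fat droplets, -0.77 ± 0.48. Without Adβgal replicates 4, 5 and 6 the differences of these 4 were 0.15, 0.16, 0.17 and 0.04. Pla2g1b, the secreted phospholipase A2, had -0.45 ± 0.23 and lay near the top of the scale, at 12.82 to 14.03 with AdNkx6.1 and 13.07 to 14.32 with Adβgal. Klk1 (-0.06 ± 0.13) and Dnase1, which cuts DNA (-0.04 ± 0.13), had the smallest differences of this group.

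Of the 7 granule proteins and inhibitors 2 fell, Serpini2 and Cuzd1, and 0 rose. Spink1, the trypsin inhibitor stored with the zymogens, had -0.89 ± 0.47 (limma adjusted p = 0.19). Gp2, the main glycoprotein of the granule membrane, had -0.80 ± 0.40, the granule lectin gene Zg16 -0.64 ± 0.49, the trefoil peptide gene Tff2 -0.54 ± 0.40 and Sycn, a protein of the inner granule membrane, -0.53 ± 0.36. Of the 4 Reg genes 0 were called by limma and 1, Reg1a, had an unadjusted p under 0.05. Reg1a had -1.08 ± 0.48 (limma adjusted p = 0.12), Reg3a -0.89 ± 0.50, Reg3g -0.37 ± 0.56 and Reg3b -0.07 ± 0.33. Of the other 3 genes Erp27 fell. Gatm, the first enzyme of creatine synthesis, had -1.10 ± 0.41 (0.064), and dropping Adβgal replicate 1, Adβgal replicate 2 or AdNkx6.1 replicate 2 gave a call (adjusted p down to 0.013). The water channel gene Aqp8 had -0.05 ± 0.14.

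**Figure D4:**
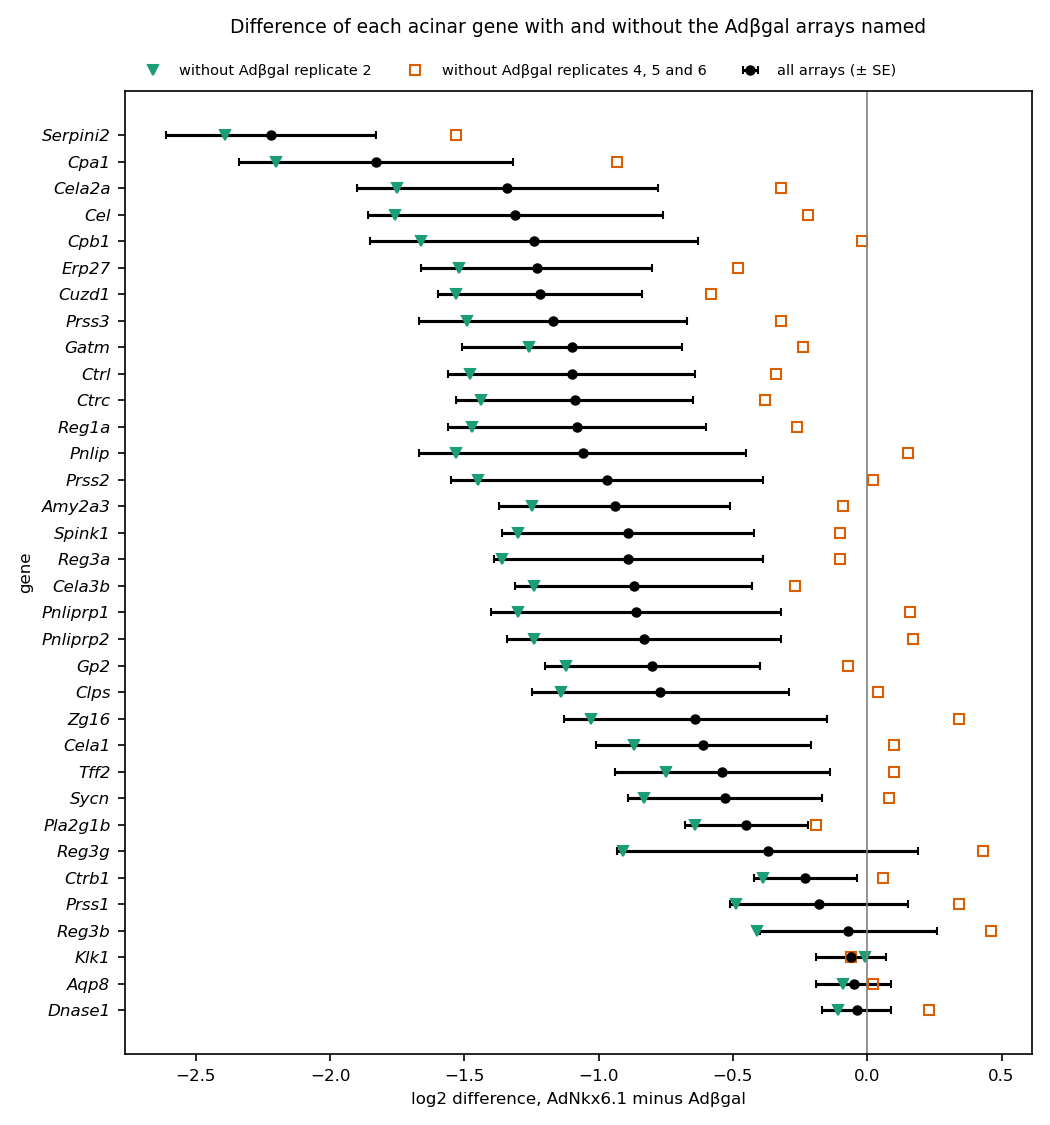
Log2 difference, AdNkx6.1 minus Adβgal, of the 34 acinar genes with all arrays (black, bars ± SE), without Adβgal replicate 2 (green triangles) and without Adβgal replicates 4, 5 and 6 (orange squares). Serpini2 and Cpa1 lie lowest with all arrays (-2.22 and -1.83), triangles lie further below 0 for most genes, and squares lie closer to 0 for most genes, with Serpini2 (-1.53) and Cpa1 (-0.93) still lowest.

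Infection as such is addressed by Adβgal against untreated. No acinar gene was called in either direction by limma, while 16 of 34 had an unadjusted p under 0.05, 13 of them higher and 3 lower. At that threshold 24.9% of all genes passed, 9.78% higher and 15.1% lower. By adjusted p, 4.17% of all genes were lower and 2.84% higher. Of the 34 differences 31 were above 0, and the median was 0.73, against -0.04 over all genes. Dropping Adβgal replicates 4, 5 and 6 gave a median of 0.03, with Dnase1 lower (-0.56, adjusted p = 0.0096) beside 2.16% of all genes. Without Adβgal replicate 2, 15 genes were higher (4.14% of all genes). That array was the lowest of its group for 30 of the 34 genes. Leaving it out was thus bound to raise the differences of those genes, and its count is descriptive. Leaving out Adβgal replicate 1 or AdNkx6.1 replicate 3 made 1 gene, Pnliprp1, higher (3.34% and 2.83% of all genes).

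Pnliprp1 came closest to a call. It read 10.09, 8.71, 10.83, 12.31, 11.58 and 11.86 on the Adβgal arrays and 8.71, 9.58, 9.23, 9.48 and 8.23 on the untreated arrays. Adβgal replicate 2 lay among the untreated arrays and the other 5 lay above them. The difference was 1.85 ± 0.54, or 3.61-fold (limma adjusted p = 0.051), and 0.83 without Adβgal replicates 4, 5 and 6 (0.36).

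Reg3g encodes a secreted lectin that kills Gram-positive bacteria in the gut, and its promoter is printed above. On the Adβgal arrays it read 9.14, 6.76, 10.05, 9.85, 10.55 and 10.35, and on the untreated arrays 7.88, 8.03, 7.34, 7.56 and 7.47. All Adβgal arrays but replicate 2 lay above all untreated arrays, and replicate 2 lay below them. The difference was 1.79 ± 0.56 (limma adjusted p = 0.063); dropping Adβgal replicate 2 gave 2.33 (0.0015), and dropping replicates 4, 5 and 6 gave 0.99 (0.37). The other Reg genes had smaller differences, with 0.61 ± 0.50 for Reg3a, 0.51 ± 0.48 for Reg1a and 0.42 ± 0.33 for Reg3b.

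Among the listed proteases, Klk1 not counted, the differences ran from 0.28 ± 0.19 (Ctrb1) to 1.48 ± 0.58 (Prss2), with a median of 1.01. Cela1 had 1.24 ± 0.40 (limma adjusted p = 0.069) and Prss1 0.94 ± 0.33 (0.090). Cpa1 had 0.46 ± 0.51 and Cela3b 0.51 ± 0.44. Among the hydrolases Pnlip had 1.55 ± 0.61, Clps 1.30 ± 0.48, Cel 0.97 ± 0.55, Pnliprp2 0.72 ± 0.51, Amy2a3 0.53 ± 0.43 and Pla2g1b 0.15 ± 0.23. Among granule proteins Zg16 had 1.42 ± 0.49, Spink1 1.31 ± 0.47 and Serpini2 0.54 ± 0.39. The 3 genes below 0 were Aqp8 (-0.41 ± 0.14), Klk1 (-0.33 ± 0.13) and Dnase1 (-0.29 ± 0.13). The groups overlapped in all 34 genes, whereas 4.83% of all genes were lower and 2.05% higher without overlap.

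AdNkx6.1 against untreated uses arrays of both comparisons above, so its values are not independent of them. Serpini2 fell by 1.68 ± 0.40 on the log2 scale (3.21-fold, limma adjusted p = 0.0048), Aqp8 by 0.46 ± 0.15 (0.029) and Klk1 by 0.39 ± 0.14 (0.039). None of the 34 rose, and 8 had an unadjusted p under 0.05, 6 lower and 2 higher, where 40.2% of all genes passed that threshold, 19.2% lower and 21.1% higher. The median was -0.12, against -0.01 over all genes, with 19 differences below 0 and 15 above. Of all genes, 13.8% were lower and 16.9% higher, so the share of acinar genes called with all arrays in 1 model of the 3 groups lies below the background in both directions. Fitted on these 2 groups alone, 6 were lower and 4 higher, beside 20.6% and 23.3% of all genes. Without Adβgal replicates 4, 5 and 6, 6 were lower and 2 higher, beside 20.5% and 22.7% of all genes. Array quality weights gave 10 lower, near the 25.4% of all genes lower in that fit. Leaving out AdNkx6.1 replicate 2 or untreated replicate 4 left 1 lower (12.9% and 11.2% of all genes). Leaving out Adβgal replicate 5 gave 5 lower (16.4%), and leaving out Adβgal replicate 2 gave 2 higher (16.9%).

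Aqp8, a water channel of the apical acinar membrane, read 3.96, 4.01, 4.47, 4.34 and 3.97 on the AdNkx6.1 arrays, against 4.58, 4.49, 4.58, 4.92 and 4.48 on the untreated arrays. The groups did not overlap, and AdNkx6.1 replicate 3 and untreated replicate 5 lay next to each other. Dropping untreated replicate 4 or any 1 of AdNkx6.1 replicates 1, 2 and 5 ended its call (limma adjusted p up to 0.083). Klk1 read 6.2, 5.81, 5.66, 5.63 and 5.98 with AdNkx6.1 and 6.19, 6.51, 6.5, 6.2 and 5.82 untreated. Its groups overlapped, and its call was lost without any 1 of untreated replicates 1 to 4 or AdNkx6.1 replicates 2 to 4 (limma adjusted p up to 0.11).

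Dnase1 lay at 4.63 to 4.97 with AdNkx6.1 and at 5.07 to 5.34 untreated, a difference of -0.33 ± 0.13 without a call (limma adjusted p = 0.070). Reg3g lay at 8.16 to 10.48 with AdNkx6.1 and at 7.34 to 8.03 untreated, a difference of 1.42 ± 0.58, again without a call (0.076). Serpini2, Aqp8 and Dnase1 were lower and Reg3g higher without overlap, against 14.7% of all genes lower and 17.4% higher without overlap. Dropping Adβgal replicate 2 gave Reg3g a call (0.0067), as did dropping Adβgal replicates 4, 5 and 6 (0.045).

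Cpa1 had -1.36 ± 0.53 in AdNkx6.1 against untreated (limma adjusted p = 0.062) and Gatm -1.02 ± 0.43 (0.086). Each was called without Adβgal replicates 4, 5 and 6, with limma adjusted p-values of 0.021 and 0.0090. Those arrays enter this comparison only through the shared estimate of the spread, and the setting was chosen with earlier results known. Among the remaining proteases Prss1 had 0.76 ± 0.34 (0.11), Cela1 0.63 ± 0.41 and Prss2 0.51 ± 0.61, and Ctrb1, Ctrc and Cpb1 had 0.05 ± 0.20, -0.07 ± 0.46 and 0.05 ± 0.63. Among lipases Pnliprp1 had 0.99 ± 0.57 (0.21), Clps 0.52 ± 0.50 and Cel -0.34 ± 0.58. Of the other Reg genes Reg3b had 0.36 ± 0.35, Reg3a -0.28 ± 0.53 and Reg1a -0.57 ± 0.50.

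Each gene was also set against the median of the 34 genes on the same array, a description given without a test and with examples picked after their values were seen. Set this way, the groups overlapped in 32 of the 34 genes in AdNkx6.1 against Adβgal, with Cpa1 (lower) and Zg16 (higher) the exceptions. They did not overlap in 10 genes in Adβgal against untreated, 8 lower and 2 higher, and in 15 in AdNkx6.1 against untreated, 13 lower and 2 higher. No such count was made over all genes, so whether these counts are unusual cannot be told. A level set this way compares groups within 1 gene and says nothing of which gene is brighter. The gene itself counts towards the median, so a gene in the middle of the 34 lies near 0 by construction. On AdNkx6.1 replicate 5 this held for Cpa1 (-0.07) and Pnliprp1 (0.07). Cpa1 lay 0.06 ± 0.15 above the median acinar gene with AdNkx6.1, 0.91 ± 0.21 above it with Adβgal and 1.74 ± 0.16 above it untreated. The 3 groups did not overlap, at -0.11 to 0.23, 0.70 to 1.25 and 1.58 to 1.99. Within Adβgal the value of Cpa1 was 0.72, 0.99 and 1.25 on replicates 1, 2 and 3 and 0.70, 0.85 and 0.97 on replicates 4, 5 and 6, although the median acinar level of those arrays ran from 9.02 to 12.36.

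Zg16, a lectin-like granule protein, had the opposite order. It lay at 0.11 to 0.57 with AdNkx6.1, -0.07 to 0.09 with Adβgal and -0.13 to -0.07 untreated, the last 2 ranges meeting at 2 decimals. On AdNkx6.1 replicate 1, Adβgal replicates 1, 2, 3 and 6 and untreated replicates 2, 3 and 4 Zg16 was itself 1 of the 2 middle genes that set the median. Its values near 0, their narrow ranges and the lack of overlap thus follow in part from the reference used. Reg1a lay 1.25 ± 0.40 above the median acinar gene with AdNkx6.1 and 1.35 ± 0.38 above it with Adβgal, both below the untreated 2.14 ± 0.06. Pnliprp1 lay at -0.07 to 0.18 with AdNkx6.1 and -0.31 to 0.20 with Adβgal, above the untreated arrays at -0.85 to -0.32. Gatm lay at -3.88 to -3.05 with AdNkx6.1, -3.86 to -2.07 with Adβgal and -2.15 to -1.76 untreated. Serpini2 lay at -4.40 to -2.31 with AdNkx6.1, -2.82 to -0.75 with Adβgal and -1.28 to -0.88 untreated.

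**Figure D5:**
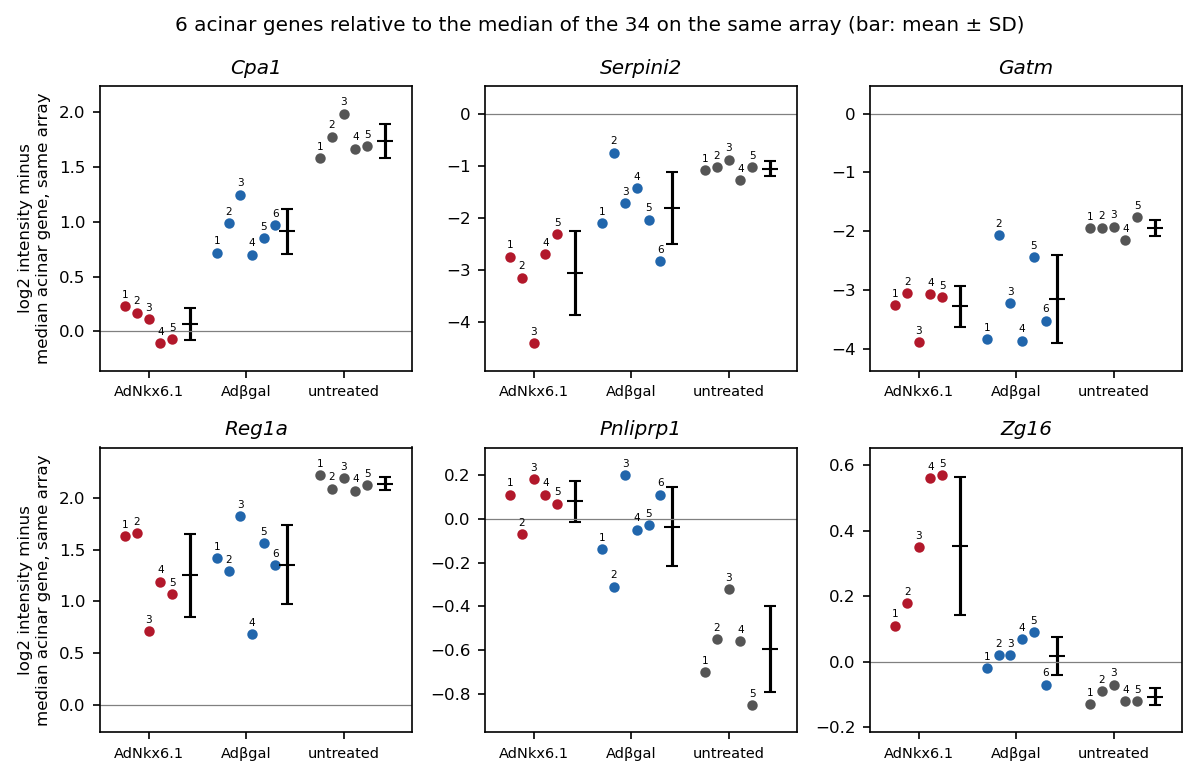
Log2 intensity of 6 acinar genes minus the median of the 34 acinar genes on the same array, by group (AdNkx6.1, Adβgal, untreated), with replicate numbers and bars for mean ± SD. Cpa1 falls into 3 separate bands (AdNkx6.1 -0.11 to 0.23, Adβgal 0.70 to 1.25, untreated 1.58 to 1.99), and untreated arrays stand apart for Reg1a. For Pnliprp1 they are separate by a narrow margin only, with the highest untreated array at -0.32 and the lowest Adβgal array at -0.31.

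The list of acinar regulators and further acinar genes, of which 12 of 17 were measured, was read beside the enzymes. In AdNkx6.1 against Adβgal 2 fell and 1 rose, in Adβgal against untreated 2 fell and 0 rose, and in AdNkx6.1 against untreated 4 fell and 1 rose. Of all genes 8.48%, 4.17% and 13.8% were lower and 16.6%, 2.84% and 16.9% higher in these comparisons. Ptf1a, the DNA-binding subunit of PTF1, averaged 5.57 ± 0.50 with AdNkx6.1, 7.69 ± 0.90 with Adβgal and 7.55 ± 0.73 untreated. It fell by 2.11 ± 0.41 relative to Adβgal (limma adjusted p = 0.0012) and by 1.97 ± 0.43 relative to untreated (0.0024), and all AdNkx6.1 arrays (5.17 to 6.30) lay below all others (6.66 to 9.11). Without Adβgal replicates 4, 5 and 6 its difference from Adβgal was -1.48 (0.011).

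Gata4, a zinc finger factor used in pancreas development, moved the other way. It was higher with AdNkx6.1 than with Adβgal (0.79 ± 0.10, limma adjusted p = 2e-05) and than untreated (0.43 ± 0.10, 0.0043), and lower with Adβgal than untreated (-0.36 ± 0.10, 0.037, lost without any 1 of 8 arrays). Bhlha15, or Mist1, which sets up the secretory apparatus of acinar cells, averaged 10.09 ± 0.23 with AdNkx6.1, 9.86 ± 0.27 with Adβgal and 10.64 ± 0.04 untreated. It fell relative to untreated by 0.54 ± 0.13 with AdNkx6.1 (0.0042) and by 0.77 ± 0.12 with Adβgal (0.0023). Xbp1, a factor of the unfolded protein response, fell by 0.22 ± 0.07 with AdNkx6.1 relative to untreated (0.031). The acinar aquaporin gene Aqp12a fell by 0.91 ± 0.30 relative to Adβgal (0.035), a call lost without any 1 of 6 virus-treated arrays and without Adβgal replicates 4, 5 and 6 (-0.45, 0.33).

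Of the zymogen granule release list 18 of 19 genes were measured. In AdNkx6.1 against Adβgal 5 fell and 4 rose, in Adβgal against untreated 0 were called by limma with 1 at an unadjusted p under 0.05, and in AdNkx6.1 against untreated 5 fell and 2 rose. Of all genes 8.48%, 4.17% and 13.8% were lower and 16.6%, 2.84% and 16.9% higher in these comparisons. At an unadjusted p under 0.05, 24.9% of all genes passed in Adβgal against untreated. Rab3d, a small GTPase of zymogen granules, was higher with AdNkx6.1 than with Adβgal (0.38 ± 0.07, limma adjusted p = 0.0014), as were the fusion genes Stxbp2 (0.31 ± 0.07, 0.0029) and Vamp8 (0.26 ± 0.06, 0.0062). Stx3, a syntaxin, was lower (-0.52 ± 0.11, 0.0022). Chrm3, the muscarinic receptor that starts enzyme release, averaged 8.33 ± 0.49 with AdNkx6.1 and 9.38 ± 0.12 untreated, and fell by 1.05 ± 0.21 (0.0011). These genes are also used by islet endocrine cells, so their levels do not belong to acinar cells alone.

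Signalling through gp130 and STAT3, which drives Reg genes in the inflamed pancreas, was covered by 13 measured genes of 15. In AdNkx6.1 against Adβgal 0 fell and 1 rose, the receptor gene Il6r (0.42 ± 0.11, limma adjusted p = 0.012), which had 0.19 without Adβgal replicates 4, 5 and 6 (0.057). In Adβgal against untreated Il6 rose by 0.92 ± 0.27 (0.048) and Stat3 fell by 0.19 ± 0.05 (0.039), calls that leaving out any 1 of 14 and of 9 arrays ended. In AdNkx6.1 against untreated 0 were called by limma and 2 had an unadjusted p under 0.05, with Il6 at 0.74 ± 0.28 (0.055). Of all genes 8.48%, 4.17% and 13.8% were called lower and 16.6%, 2.84% and 16.9% higher in the comparisons as ordered here. At an unadjusted p under 0.05, 40.2% of all genes passed in AdNkx6.1 against untreated.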

How the data were processed

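RNA of 16 islet samples was measured on 1-colour Affymetrix arrays. The values deposited by the authors are linear intensities of probe sets, from 6.25 to 35765; the submitters' processing notes name RMA (background correction, normalization between arrays and probe summary) without a version. The planned analysis had assumed a deposited log2 scale, and the intensities were therefore log2-transformed first, with no pseudocount and no filter on dim probe sets. Array medians lay between 264.8 and 296.2, and precision is limited by the number of arrays.

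Of 31099 probe sets 57 were controls, 20826 carried 1 gene symbol, 436 more than 1 and 9780 no symbol. The probe set of highest mean stood for each gene, giving 14217 genes. The limma package 3.58.1 (R 4.3.3) fitted them by lmFit, contrasts.fit and eBayes in 1 model of the 3 groups, with 2-sided p-values adjusted by the Benjamini-Hochberg method over all genes of a comparison. A call is an adjusted p under 0.05. Tables and figures used pandas 2.3.3 and matplotlib 3.10.9, and the fit was tested on simulated data. The comparisons share arrays of a group.

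The 39 acinar genes, the further lists and the marker lists were chosen with earlier results of these data known, as was the setting without Adβgal replicates 4, 5 and 6. All measured acinar genes could be named, with the 4 genes of smallest p of each further list and at most 3 of each marker list in a comparison. Ins1, Ins2 and Gcg were added to check the tissue. The alternatives were other choices of probe set, normalization, level filter, array weights, intensity trend, groups fitted, a replicate block and arrays left out. Promoters come from a RefSeq table of build GRCr8.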

Additional observations from a re-analysis of the deposited data

Results flagged for a closer look

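For each acinar gene and group, the array at either end was set against the gap to its neighbour and the range of the group (Dixon's criterion at 95%). Of 102 groups examined 5 held an array that stood apart, and chance alone marks about 1 group in 20. On Adβgal replicate 2 Reg3b read 11.25, where the next array of the group read 12.87. On the same array Reg3g read 6.76, where the next read 9.14, and Pla2g1b read 13.07, where the next read 13.96. Tff2 read 9.52 on Adβgal replicate 4, where the next array read 7.5. Aqp8 read 4.92 on untreated replicate 4, where the next array read 4.58. Without Adβgal replicate 2 the difference of Reg3g, Adβgal minus untreated, was 2.33 (limma adjusted p = 0.0015) and that of Reg3b 0.77 (0.013), against 1.79 and 0.42 with all arrays. That array was the lowest of its group for both genes, so dropping it was bound to raise both differences.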

How the results depend on the processing

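Among settings other than single arrays left out, the acinar genes called lower in AdNkx6.1 against Adβgal numbered 1 with genes above the median level only, 8 with array quality weights, 2 with only these groups fitted and 1 without Adβgal replicates 4, 5 and 6, against 4; of all genes 11.5%, 13.2%, 5.36% and 10.4% were lower in these settings. With single arrays left out the count ran from 2 to 24, and the share of all genes lower from 5.94% to 9.54%. For Adβgal against untreated, 1 was lower with array weights (7.58% of all genes) and 1 without those 3 arrays (2.16%). Higher were 1 with the mean of all probe sets (3.04%), 2 with genes above the median level (4.12%) and 1 with an intensity trend (3.07%). With single arrays left out 0 to 15 were higher, beside 1.49% to 4.14% of all genes. With all arrays these counts were 0. For AdNkx6.1 against untreated, 1 was lower with genes above the median level, 10 with array weights, 6 with only these groups fitted and 6 without the 3 Adβgal arrays, against 3; 4 were higher with only these groups fitted and 2 without the 3 arrays, against 0. Of all genes 19.2%, 25.4%, 20.6% and 20.5% were lower in those 4 settings, and 23.3% and 22.7% higher in the last 2. Single arrays left out gave 1 to 5 lower and 0 to 2 higher, beside 10.7% to 16.4% and 14.3% to 19.3% of all genes. Changes of sign were traced only for genes called in at least 1 setting of a comparison. Of these, without the 3 Adβgal arrays, AdNkx6.1 minus Adβgal turned positive for Prss2 (0.02), Pnlip (0.15), Pnliprp1 (0.16), Pnliprp2 (0.17), Clps (0.04) and Sycn (0.08). The difference of Reg3b, Adβgal minus untreated, was -0.1. Further genes without a call in any setting also changed sign. Examples are Reg3b (0.46), Reg3g (0.43), Prss1 (0.34) and Zg16 (0.34) in AdNkx6.1 minus Adβgal, and Gatm (-0.78) and Cpa1 (-0.44) in Adβgal minus untreated. The median difference in AdNkx6.1 against Adβgal ran from -1.25 to -0.63 with single arrays left out and stood between -0.94 and -0.07 in the other settings; in Adβgal against untreated it ran from 0.6 to 1.11, and in AdNkx6.1 against untreated from -0.29 to 0.13, with single arrays left out. The cause of these shifts was not tested beyond the arrays named.

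With the replicate number as a block, 1 acinar gene was lower in AdNkx6.1 against Adβgal, against 4, and 2 in AdNkx6.1 against untreated, against 3. Of all genes 6.37% and 11.9% were lower in these 2 comparisons with the block, against 8.48% and 13.8%. The median difference of the acinar genes in the first of these comparisons was -0.71. Deviations of same-numbered samples from their group means had correlations of -0.39 to -0.03 between AdNkx6.1 and Adβgal. The correlations were -0.22 to 0.13 between Adβgal and untreated and -0.19 to 0.25 between AdNkx6.1 and untreated. Samples of unlike number had -0.3 to 0.33, -0.19 to 0.22 and -0.27 to 0.27 in the same order. Such correlations cannot tell whether same-numbered samples shared an islet preparation, so whether the numbers pair the samples is not known.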
